A study of Mus musculus with 12 samples.

Results

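Replication-dependent histone genes, the genes whose older mouse names begin with Hist1h to Hist4h, were followed in hind limb muscle and in heart, in wild-type (Tk2+/+) mice and Tk2 knockouts (Tk2-/-). The annotation of the array carried current symbols (Hist1h1c is H1f2), and 0 of its symbols matched the older pattern, so the genes were found through the former names that RefSeq gives. RefSeq (assembly GRCm38.p6) held 70 such genes, of which 67 were protein coding and 3 were pseudogenes. Of these, 32 had a probe set that carried no other gene symbol, and these 32 of the 18820 genes measured are the members described here. They comprised 5 of 6 H1 genes, 7 of 20 H2a genes, 10 of 19 H2b genes, 3 of 12 H3 genes and 7 of 13 H4 genes. A further 36 genes were covered only by probe sets that list several genes, and 2 had no probe set in the annotation used here. On chromosome 13, which carries the large histone cluster, lay 24 members, with 5 on chromosome 3, 2 on chromosome 11 and 1 on chromosome 6. One member, H2bu1-ps, is annotated as a transcribed pseudogene.

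Histones package DNA into nucleosomes, and each nucleosome core holds pairs of H2A, H2B, H3 and H4, while the linker histone H1 binds where DNA enters and leaves the core. Replication-dependent histone genes are transcribed mainly in S phase, when new DNA needs new nucleosomes, and most of their mRNAs end in a stem-loop bound by SLBP (stem-loop binding protein) in place of a poly(A) tail. Replication-independent genes such as H3f3b and H2az1 supply variant histones throughout the cell cycle. In the first weeks after birth, muscle progenitors and heart cells leave the cell cycle.

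The arrays came from C57BL/6 mice 11 days old, with 3 Tk2+/+ and 3 Tk2-/- arrays for hind limb skeletal muscle and for heart, 12 in all, each group made of 3 different mice. The methods leave unclear whether heart and muscle arrays came from the same mice, and the labels tie no heart array to a muscle array. The tests between tissues therefore treated the arrays as independent. Xist, a marker of female cells, had a signal above 100 on 1 of 3 Tk2+/+ and 2 of 3 Tk2-/- muscle arrays. In heart it was above 100 on 2 of 3 Tk2+/+ and 3 of 3 Tk2-/- arrays. By this cut, the muscle and heart arrays of a genotype did not all come from the same mice. By the same cut, sex was unbalanced between genotypes in both tissues. Tk2 encodes the mitochondrial thymidine kinase, and the sources used here name no tissue to which the knockout is limited. Total RNA of whole tissue was labelled, and fewer cells of a type cannot be told apart from less RNA per cell. Tk2 signal was 62.9, 68.5 and 63.1 in Tk2+/+ muscle and 64.7, 44.1 and 48.7 in Tk2-/- muscle, and the arrays overlapped (log2 fold change -0.25, limma, adjusted p = 0.208). In heart it was 70.2, 73.6 and 81.8 against 30.1, 46.2 and 31.7 (log2 fold change -0.82, adjusted p = 7.62e-05). As deposited, 49% of all genes were lower in heart, with a median log2 fold change of -0.28 over all genes. The sources do not say whether the probe set lies in the deleted part of Tk2. For both reasons the Tk2 values check the labels in part only. Of 18 skeletal muscle fibre markers, 17 were higher in Tk2+/+ muscle than in Tk2+/+ heart, and 16 of 17 cardiomyocyte markers were lower, as the tissue labels state. The Tk2-/- heart arrays were dimmer than the rest. Their mean signal over all probe sets was 147 to 168, against 227 to 243 on the Tk2+/+ heart arrays. Counts and the main values in heart are therefore given as deposited and after quantile normalization. This brought the arrays of each tissue to the same distribution. Where no scale is named, a value is as deposited.

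The bases before the start of 6 members are shown, so that the H1 gene that rose (H1f2) can be set beside 2 that fell (H1f1 and H1f5), the H2a and the H2b gene with the lowest fold change in muscle (H2ac4 and H2bc3), and 1 H4 gene. Each run is the 250 bases before the transcription start in RefSeq, build GRCm38.p6, from 5′ to 3′ on the strand of the gene. Capitals mark matches, on either strand, to 6 motifs: CCAAT, the TATA box TATAAA, the similar run TATATA, the H1 box AAACACA, the octamer ATTTGCAT, and GGTCCG from the core of an H4 gene element. A motif on the other strand appears as its reverse complement. TATAAA and TATATA overlap in places. As deposited, H1f2 rose in both Tk2-/- tissues, 4 of the others fell in both, and H4c9 passed the test in neither.
H1f2, chr13:23738557-23738806, plus strand: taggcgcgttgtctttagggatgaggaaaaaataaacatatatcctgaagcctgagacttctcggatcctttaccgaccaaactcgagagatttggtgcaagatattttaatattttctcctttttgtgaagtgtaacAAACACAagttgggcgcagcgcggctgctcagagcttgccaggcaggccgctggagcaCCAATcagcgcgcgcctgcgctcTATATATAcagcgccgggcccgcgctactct
H1f1, chr13:23763418-23763667, plus strand: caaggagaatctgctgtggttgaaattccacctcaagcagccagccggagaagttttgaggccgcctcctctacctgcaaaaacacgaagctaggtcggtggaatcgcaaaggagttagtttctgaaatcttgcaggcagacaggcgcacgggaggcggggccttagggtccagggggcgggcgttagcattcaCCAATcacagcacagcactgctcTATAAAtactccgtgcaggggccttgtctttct
H1f5, chr13:21780626-21780875, minus strand: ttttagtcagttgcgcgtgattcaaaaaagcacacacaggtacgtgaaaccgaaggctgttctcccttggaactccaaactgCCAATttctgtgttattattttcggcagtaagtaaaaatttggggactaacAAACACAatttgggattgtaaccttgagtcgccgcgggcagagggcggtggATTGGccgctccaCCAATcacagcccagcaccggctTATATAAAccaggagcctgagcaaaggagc
H2ac4, chr13:23750838-23751087, plus strand: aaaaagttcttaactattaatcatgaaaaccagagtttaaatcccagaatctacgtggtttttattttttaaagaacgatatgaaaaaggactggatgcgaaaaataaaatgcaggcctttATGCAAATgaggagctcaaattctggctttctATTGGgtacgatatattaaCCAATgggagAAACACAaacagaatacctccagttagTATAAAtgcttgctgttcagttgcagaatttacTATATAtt
H2bc3, chr13:23746484-23746733, plus strand: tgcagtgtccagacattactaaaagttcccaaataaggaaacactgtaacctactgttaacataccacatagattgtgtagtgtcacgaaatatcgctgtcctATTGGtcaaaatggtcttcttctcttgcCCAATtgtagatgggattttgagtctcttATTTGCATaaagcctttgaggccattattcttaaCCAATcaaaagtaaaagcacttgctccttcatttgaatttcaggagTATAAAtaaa
H4c9, chr13:22041363-22041612, minus strand: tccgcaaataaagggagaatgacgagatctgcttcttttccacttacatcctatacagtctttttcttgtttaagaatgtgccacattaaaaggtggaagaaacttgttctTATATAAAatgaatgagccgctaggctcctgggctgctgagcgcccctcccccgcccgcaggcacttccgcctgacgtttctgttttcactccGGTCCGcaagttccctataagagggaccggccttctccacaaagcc

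H1f2, the member that rose, held the H1 box 112 bases before the start and CCAAT 54 bases before it, and H1f5, which fell, held the H1 box at 117 bases. H1f1 fell too, with CCAAT at 56 bases and TATAAA at 33 bases and no H1 box in this window. RefSeq promoters were found for 27 of 32 members, and H2bc4, H4c14, H2bu1-ps, H3c7 and H2bc21 were without one. The H1 box was in 4 of 5 H1 promoters, in 8 of all 27 and in 6.25% of the 32851 promoters of the table. The octamer, a sequence bound by the factor Oct-1, was in 5 of 7 H2a and 5 of 7 H2b promoters, in 0 of 5 H1 and 0 of 6 H4 promoters, and in 1.60% of all promoters. GGTCCG was in 5 of 6 H4 promoters and in 6.72% of all promoters, and CCAAT was in 22 of 27 members and in 33.9% of all promoters. A match is a description of the letters and does not show that a factor binds there.

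Skeletal muscle of Tk2-/- mice had lower signal for most H2a and H2b members and for 3 H1 genes, and higher signal for 1 H1 gene, H1f2. Of 32 members, 16 were lower and 1 was higher at an adjusted p under 0.05 (limma, Benjamini-Hochberg over all 18820 genes), where 10.9% of all genes were lower and 11.6% were higher. The median log2 fold change was -0.57 over the members and -0.02 over all genes. After quantile normalization 17 were lower and 1 higher, where 14.8% and 13.9% of all genes were, and the 17 became 11 without Tk2-/- muscle replicate 3. By class, as deposited, 3 of 5 H1, 6 of 7 H2a and 7 of 10 H2b genes were lower, and no H3 or H4 gene passed the test.

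H1f2 (Hist1h1c), which encodes the linker histone H1.2, was the member that rose. Its signal was 1519.8, 1748 and 1346 in Tk2+/+ muscle and 3016, 3471 and 2668 in Tk2-/- muscle. Every Tk2-/- array was above every Tk2+/+ array, a pattern shown upward by 16.9% of all genes. The log2 fold change was 0.98 ± 0.19 (SE, n = 3 arrays a group; adjusted p = 0.00188), and it stayed past the threshold when each of the 12 arrays was left out (0.88 to 1.08).

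The other H1 genes did not follow H1f2. H1f5 (Hist1h1b) gave 669, 516 and 289 in Tk2+/+ muscle and 100.1, 303 and 122 in Tk2-/- muscle. Its fold change was -1.48 ± 0.34 on the log2 scale (adjusted p = 0.00500), although Tk2-/- replicate 2 lay inside the Tk2+/+ range. H1f1 (Hist1h1a) gave 937, 765 and 465 against 262, 413 and 212, without overlap, and fell by 1.24 on the log2 scale (adjusted p = 0.00874). H1f3 (Hist1h1d), dimmer at 44.7 to 107 in Tk2+/+ muscle, fell by 0.66 (adjusted p = 0.0193). H1f6, the H1 gene known from testis, was near the offset of 16 that was added before the log2 in all groups (12.6 to 24.9), where the offset understates differences.

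**Figure D1:**
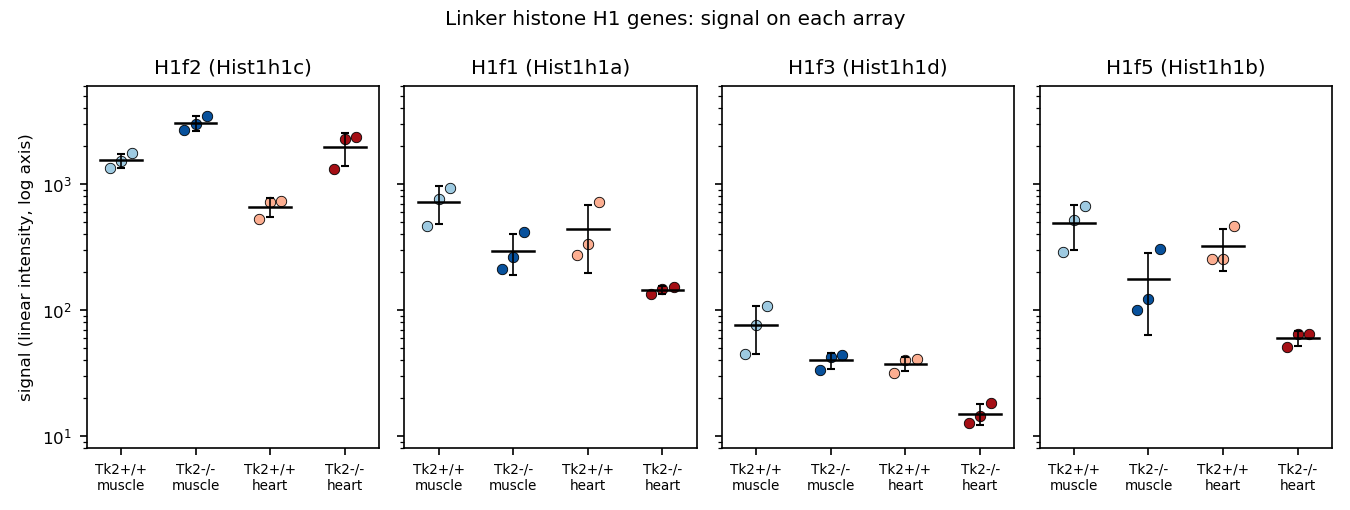
Signal of 4 linker histone genes on each array (linear intensity on a log axis), by tissue and genotype, with the mean as a line and the SD as the bar (n = 3). H1f2 lies at 2668 to 3471 in Tk2-/- muscle against 1346 to 1748 in Tk2+/+ muscle, while H1f1, H1f3 and H1f5 have lower means in Tk2-/- tissues.

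Among H2a genes, which encode 1 partner of the H2A-H2B dimer, H2ac4 and H2ac15 had the lowest fold changes. H2ac4 (Hist1h2ab) gave 190, 148 and 74.0 in Tk2+/+ muscle and 19.2, 35.3 and 20.2 in Tk2-/- muscle, a log2 fold change of -1.85 ± 0.29 (adjusted p = 0.000251). H2ac15 (Hist1h2ak) gave 1495, 1128 and 756 against 239, 457 and 246, a log2 fold change of -1.80 ± 0.26 (adjusted p = 0.000125). Neither gene had overlapping arrays, a pattern shown downward in muscle by 14 of 32 members and 18.8% of all genes. H2ac8, H2ac1 and H2ac21 were lower too, with log2 fold changes of -1.28, -0.75 and -0.64 (adjusted p = 0.000973, 0.0499 and 0.0250), with arrays of H2ac21 overlapping between genotypes. The dim H2ac6 (7.31 to 17.8 over all arrays of muscle) fell by 0.40, a value that the offset understates. H2aw, on chromosome 11, had a log2 fold change of -0.45 (adjusted p = 0.102).

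Among H2b genes, H2bc3 (Hist1h2bb) gave 849.7, 676 and 408 in Tk2+/+ muscle and 147, 241 and 125 in Tk2-/- muscle, without overlap. Its log2 fold change was -1.81 ± 0.29 (adjusted p = 0.000329). H2bc14, H2bc1, H2bc18, H2bc9, H2bc8 and the pseudogene H2bu1-ps were also lower, with log2 fold changes of -1.05, -0.84, -0.77, -0.69, -0.59 and -0.55. H2bc18 (adjusted p = 0.0482) and H2bc8 had arrays that overlapped between genotypes, and H2bc18 missed the threshold after quantile normalization (adjusted p = 0.0519). H2bc4 (Hist1h2bc), bright in every group, was not called: its signal was 1688, 2014 and 1368 in Tk2+/+ muscle and 1655, 1799.8 and 1653 in Tk2-/- muscle, with overlap, a log2 fold change of 0.03 ± 0.12 (adjusted p = 0.924). It is the member with 2 probe sets of its own, and the dimmer of them gave 0.09 (adjusted p = 0.823 over all probe sets). H2bc22 and H2bc21 had log2 fold changes of -0.42 (adjusted p = 0.204) and -0.27 (adjusted p = 0.0871).

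None of the 7 H4 genes passed the test in muscle, and 1 of 7, H4c6, did at an unadjusted p under 0.05, by limma. The methods' t-test after Benjamini-Hochberg adjustment called 0 of the 32 members either way. H4c4 (Hist1h4d) gave 2018, 1978 and 1318 in Tk2+/+ muscle and 1633, 1555 and 1262 in Tk2-/- muscle, with overlapping arrays and a log2 fold change of -0.24 ± 0.17 (adjusted p = 0.409). H4c14 (Hist2h4) gave -0.26 (adjusted p = 0.435), H4c3 0.01 (adjusted p = 0.983) and H4c6 -0.69 (adjusted p = 0.0572, and 0.0312 after quantile normalization, at -0.78). The 3 H3 genes gave 0 calls, also 0 at an unadjusted p under 0.05, and 2 of them are dim: H3c7 lay at 4.22 to 12.2 and H3c15 at 5.42 to 12.8 over the muscle arrays. H3c4 (Hist1h3d), the brighter of the class, gave 496, 448 and 269 against 313, 240 and 204, a log2 fold change of -0.62 ± 0.30 (adjusted p = 0.176).

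**Figure D2:**
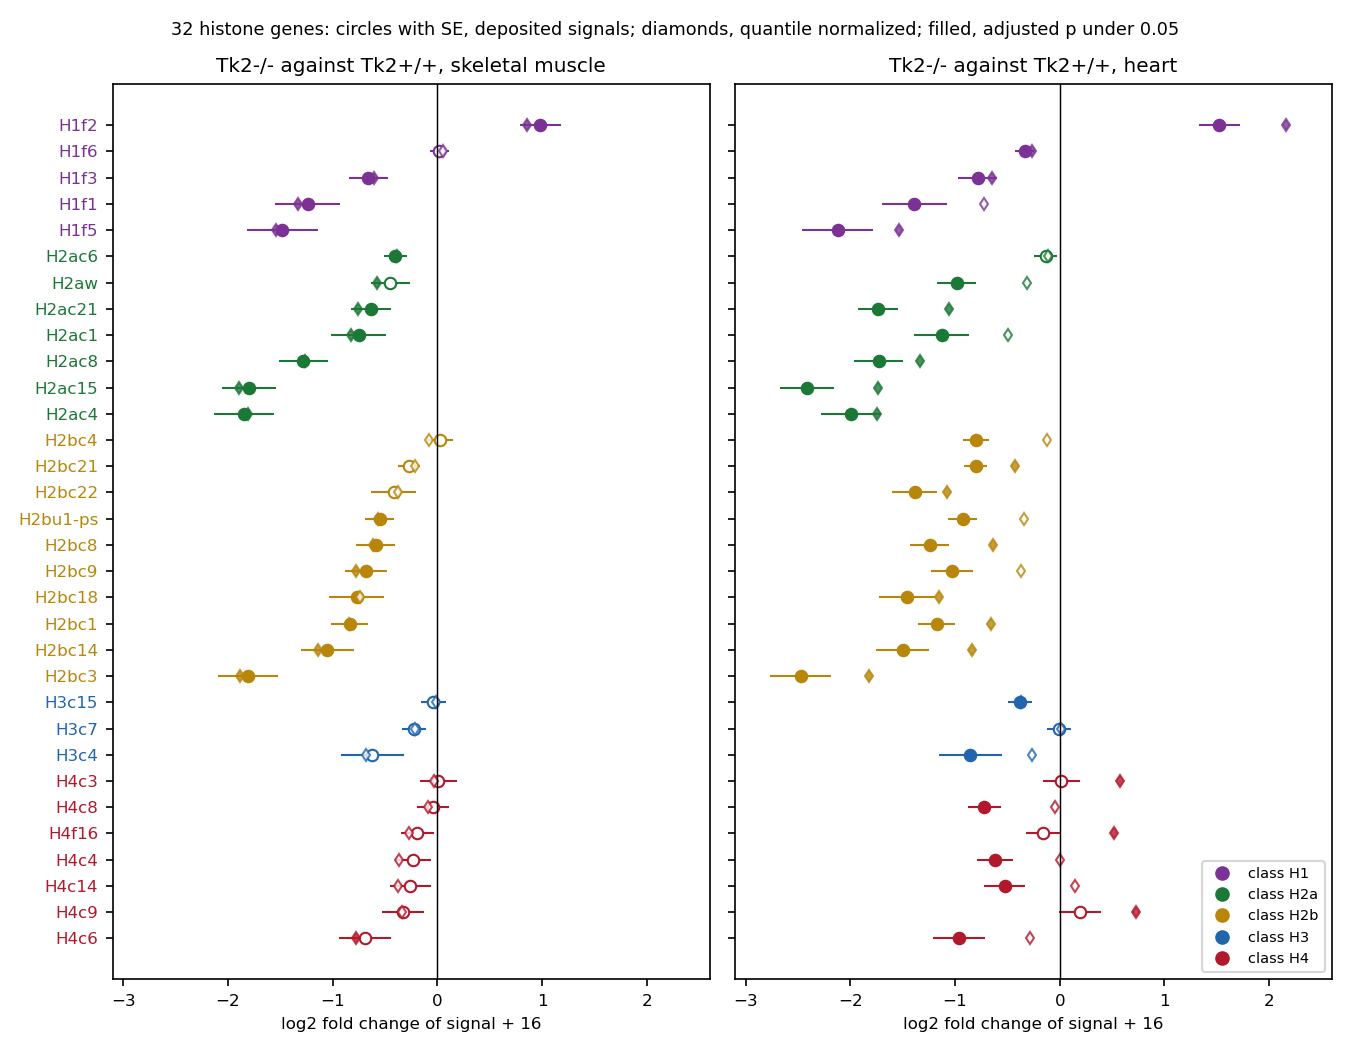
Log2 fold change (signal + 16) of the 32 members in Tk2-/- against Tk2+/+ skeletal muscle and heart, by histone class. Circles with SE are deposited signals and diamonds are values after quantile normalization within the tissue, filled where the adjusted p was under 0.05. H1f2 stands at 0.98 in muscle and 1.53 in heart, while 16 members in muscle and 26 in heart were lower as deposited.

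Within each muscle group, the arrays ranked alike over most members. In Tk2+/+ muscle, replicate 1 had the highest signal for 24 of 32 members and replicate 3 the lowest for 30, where over all genes replicate 1 was the highest for 38.6% and replicate 3 the lowest for 57.6%. In Tk2-/- muscle, replicate 2 was the highest for 24 of 32 members and replicate 3 the lowest for 28, against 32.8% and 49.9% of all genes. S phase genes were ordered alike: Tk2+/+ replicate 1 was the highest for 38 of 40 and Tk2-/- replicate 2 for 30 of 40. As deposited, the count of lower members depended on single muscle arrays. It was 10 without Tk2+/+ replicate 1, 9 without Tk2+/+ replicate 2, 9 without Tk2-/- replicate 3 and 20 without Tk2+/+ replicate 3. H1f2 and 8 of the 16 lower members (H2ac4, H2ac8, H2ac15, H2bc1, H2bc3, H2bc14, H1f1 and H1f5) passed the threshold without each of the 12 arrays.

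Heart of Tk2-/- mice showed H1f2 higher and nearly all other members lower as deposited, on arrays that were dimmer as a whole. Of 32 members, 26 were lower and 1 was higher, where 49% of all genes were lower and 1.99% were higher. The median log2 fold change was -0.94 over the members, -0.28 over all genes and -0.68 over the 4051 genes with a mean signal over 256. H1f2 gave 739, 529 and 715 in Tk2+/+ heart and 2268, 1315 and 2346 in Tk2-/- heart, without overlap, which 3.16% of all genes showed upward. Downward, 24 of 32 members and 53.3% of all genes had arrays that did not overlap. Its log2 fold change was 1.53 ± 0.19 (adjusted p = 1.35e-05) as deposited and 2.16 ± 0.19 (adjusted p = 1.29e-05) after quantile normalization.

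After quantile normalization within the tissue, 15 members were lower and 4 were higher in heart, where 17.8% and 13.8% of all genes were. The median was -0.37 over the members and 0.00 over all genes. By class, 3 of 5 H1, 4 of 7 H2a, 7 of 10 H2b and 1 of 3 H3 genes were lower, and 0 of 7 H4 genes (0 at an unadjusted p under 0.05, by limma). The H3 gene was the dim H3c15, at 0.50 to 8.42 over the heart arrays, below the offset of 16. The brighter H3c4 gave -0.27 (adjusted p = 0.551, limma). The H1 genes were H1f5, H1f3 and the dim H1f6, the last at -0.27. Of the 16 genes lower in muscle as deposited, 15 were also lower in heart, which is 93.8% of the muscle genes and 57.7% of the 26 heart genes, the exception being H2ac6. After quantile normalization the genes lower in both tissues were 10, of 17 in muscle and 15 in heart. As deposited, 49% of all genes were lower in heart. The share of all genes lower in both tissues was not counted, so these overlaps have no background beside them.

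H2bc3 gave 940.0, 486 and 652 in Tk2+/+ heart and 110.7, 75.9 and 144 in Tk2-/- heart. Its log2 fold change was -2.47 ± 0.29 as deposited (adjusted p = 7.01e-06) and -1.82 after quantile normalization (adjusted p = 0.000692). H2ac15 gave 1138, 832 and 661 against 136, 141 and 168, with log2 fold changes of -2.41 and -1.73. H1f5 (462, 255 and 255 against 64.1, 50.5 and 64.6) gave -2.12 and -1.54. None of these 3 genes had overlapping arrays, and each stayed past the threshold on both scales. H2ac4, H2ac21, H2ac8, H2bc14, H2bc18 and H2bc22 had log2 fold changes of -1.99, -1.74, -1.73, -1.50, -1.46 and -1.39 as deposited, and of -1.74, -1.06, -1.34, -0.83, -1.15 and -1.08 after quantile normalization, all past the threshold. H1f1 was the exception among the 10 largest, with -1.39 as deposited (adjusted p = 0.00126) and -0.72 after quantile normalization (adjusted p = 0.0968).

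H4 genes in heart turned on the scale used. As deposited, 4 of 7 were lower and none was higher (0 at an unadjusted p under 0.05 too), with H4c4 at 2187, 1818 and 1762 in Tk2+/+ heart and 1009, 1483 and 1287 in Tk2-/- heart (log2 fold change -0.61, adjusted p = 0.00681). After quantile normalization 3 of 7 were higher. H4c9 (Hist1h4i) gave 101, 138 and 59.2 in Tk2+/+ heart and 100.2, 119 and 113 in Tk2-/- heart, with overlapping arrays, a log2 fold change of 0.19 (adjusted p = 0.472) as deposited and 0.73 (adjusted p = 0.00876) after quantile normalization. H4c3 (Hist1h4c) gave 129, 114 and 82.1 against 88.0, 95.7 and 149, with 0.01 as deposited and 0.58 (adjusted p = 0.0385) after it. H4f16 (Hist4h4) was at -0.16 (adjusted p = 0.460) as deposited and at 0.51 (adjusted p = 0.0233) after it. H4c3 lost its call without Tk2-/- heart replicate 3 (0.31, adjusted p = 0.140), Tk2+/+ heart replicate 3 (0.43), Tk2+/+ heart replicate 1 (0.64) or Tk2-/- muscle replicate 3 (0.58), whereas H4c9 kept it without each of the 12 arrays (0.49 to 0.97). The count of members higher in heart after quantile normalization fell from 4 to 2 without Tk2+/+ heart replicate 1, without Tk2+/+ heart replicate 3 and without Tk2-/- heart replicate 3.

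H2a and H2b genes often sit head to head and share the stretch between their starts, and both genes of 2 such pairs were members. H2ac8 and H2bc8 have starts 180 bases apart, and their log2 fold changes were -1.28 and -0.59 in muscle and -1.73 and -1.24 in heart as deposited. H2ac8 gave 212, 171 and 121 in Tk2+/+ muscle and 52.3, 84.8 and 42.9 in Tk2-/- muscle, whereas H2bc8 gave 300.3, 254 and 178 against 138, 211 and 123. H2ac1 and H2bc1, the pair known from testis, have starts 281 bases apart, and gave -0.75 and -0.84 in muscle and -1.13 and -1.18 in heart. After quantile normalization the heart values were -1.34 and -0.64 for H2ac8 and H2bc8, and -0.50 and -0.66 for H2ac1 and H2bc1, of which H2ac1 missed the threshold (adjusted p = 0.178). Both genes of each pair were lower in both tissues as deposited, and the difference within a pair was not tested, since the levels come from different probes.

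Most H3 genes, and many H2a, H2b and H4 genes, could be read only through probe sets that list 2 to 11 histone genes, because their sequences are near-identical. These 39 probe sets are described by class and not by gene, and sets of a class share genes, so they are not independent. In classes H2b and H4 some sets had the same mean in every group and the same fold changes. The same reading is then counted more than once. In muscle, 29 were lower and 0 were higher (0 at an unadjusted p under 0.05), where 6.59% of all 35556 probe sets were lower and 7.51% higher. After quantile normalization 32 were lower and 0 higher (0 at an unadjusted p under 0.05), against 9.63% and 9.36%. As deposited, all 10 H3 sets were lower, at -1.17 to -1.13 on the log2 scale, as were all 8 H2b sets and 10 of 13 H2a sets. None of the 6 H4 sets was (1 at an unadjusted p under 0.05), with log2 fold changes of -0.58 to -0.26. After quantile normalization 0 of the 6 H4 sets passed the adjusted threshold in muscle, at -0.56 to -0.37. On that scale all 6 were lower at an unadjusted p under 0.05, by limma. In heart, 38 of 39 were lower and 0 higher as deposited (0 at an unadjusted p under 0.05), where 37.8% and 1.59% of all probe sets were. After quantile normalization 31 were lower and 1 was higher, where 12% and 11% of all probe sets were. All 10 H3 sets stayed lower, at -1.70 to -1.60, and 0 of the 6 H4 sets were (0 at an unadjusted p under 0.05), at -0.28 to -0.19. The set that was higher lists an H1 gene with an H2b gene, and gave 0.51.

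**Figure D3:**
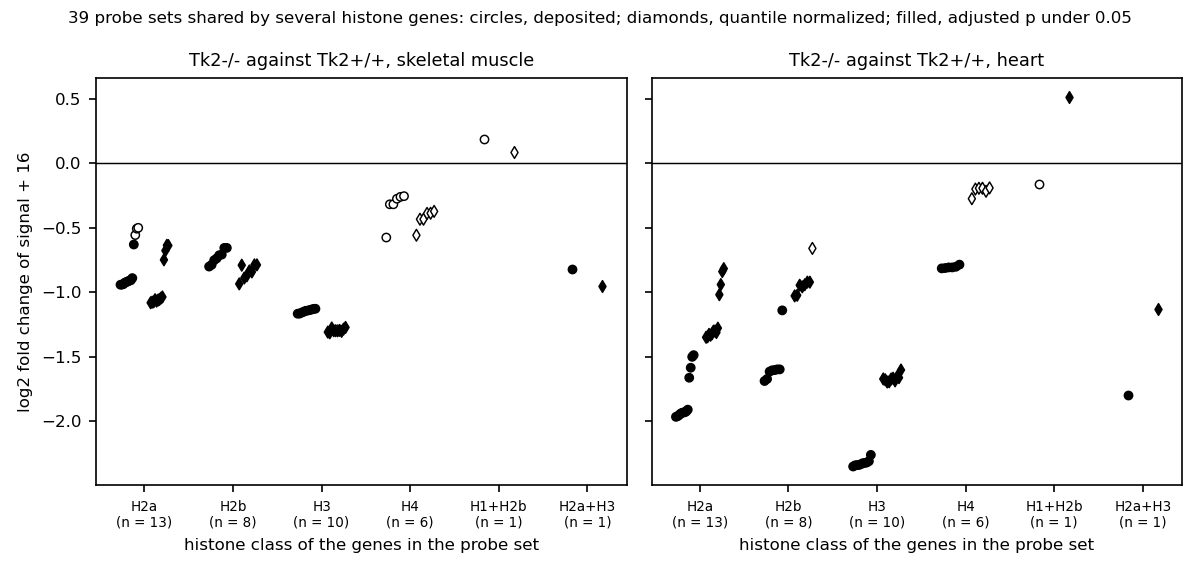
Log2 fold change (signal + 16) of the 39 probe sets that list several histone genes, by the class of those genes, in muscle and heart. Circles are deposited signals and diamonds values after quantile normalization, filled where the adjusted p was under 0.05. H3 sets sit lowest, at -1.17 to -1.13 in muscle, and H4 sets at -0.58 to -0.26.

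The genotype effect was set against itself between the tissues by an interaction term (muscle effect minus heart effect). As deposited, 6 members differed, all with a more negative value in heart, where 41.3% of all genes did so, and 0 differed the other way (0 at an unadjusted p under 0.05, by limma), as 1.39% of all genes did. They were H2ac21 (1.10, adjusted p = 0.00382), H2bc22 (0.97, adjusted p = 0.0177), H2bc4 (0.83, adjusted p = 0.00146), H4c8 (0.68, adjusted p = 0.0197), H2bc21 (0.53, adjusted p = 0.0100) and H1f6 (0.35, adjusted p = 0.0394), which is dim in every group. H2bc4 gave 1359.6, 1175 and 1393 in Tk2+/+ heart and 722, 753 and 751 in Tk2-/- heart, where muscle showed a log2 fold change of 0.03. After quantile normalization none of these 6 passed the test, 0 members were called in that direction (3 at an unadjusted p under 0.05, against 5.97% of all genes called), and 3 members differed the other way (4.54% of all genes did): H1f2 at -1.31 (adjusted p = 0.0106), H4c9 at -1.07 (adjusted p = 0.0207) and H4f16 at -0.78 (adjusted p = 0.0405). For H1f2 as deposited the difference was -0.54 ± 0.28 (adjusted p = 0.133), and without Tk2-/- heart replicate 2 it was -0.81 (adjusted p = 0.00556). Which members differed between tissues therefore depended on the scale, and the count as deposited was 3 without Tk2+/+ muscle replicate 3.

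Between the tissues of Tk2+/+ mice, 9 members (28.1%) were higher in skeletal muscle than in heart, a share near the 30.6% of all genes. Lower were 0 members (2 at an unadjusted p under 0.05, by limma) and 18.4% of all genes. The median log2 difference was 0.32 over the members and 0.12 over all genes. H1f2 had the largest, 1.21 ± 0.19 (adjusted p = 0.000160), with 1346 to 1748 in muscle and 529 to 739 in heart. H4c3 (1.04, adjusted p = 0.000238), H4c9 (1.01, adjusted p = 0.000847), H3c4 (0.98, adjusted p = 0.0153) and H2bc9 (0.73, adjusted p = 0.00753) followed. H4c3 lay at 195 to 282 in muscle and 82.1 to 129 in heart, without overlap. H1f3, H2bc1, H2bc4 and H3c7 were the other 4, at 0.32 to 0.72. The count was 5 without Tk2+/+ muscle replicate 1 and 5 without replicate 2. It was 21 once each tissue had been quantile normalized, where 51.5% of all genes were higher. That scale brings Tk2+/+ heart arrays to the same distribution as the dimmer Tk2-/- heart arrays, so it is not suited to comparing tissues. The median log2 difference over all genes was 0.24 on it. On that scale 0 members were lower (0 at an unadjusted p under 0.05) and 9.98% of all genes were.

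**Figure D4:**
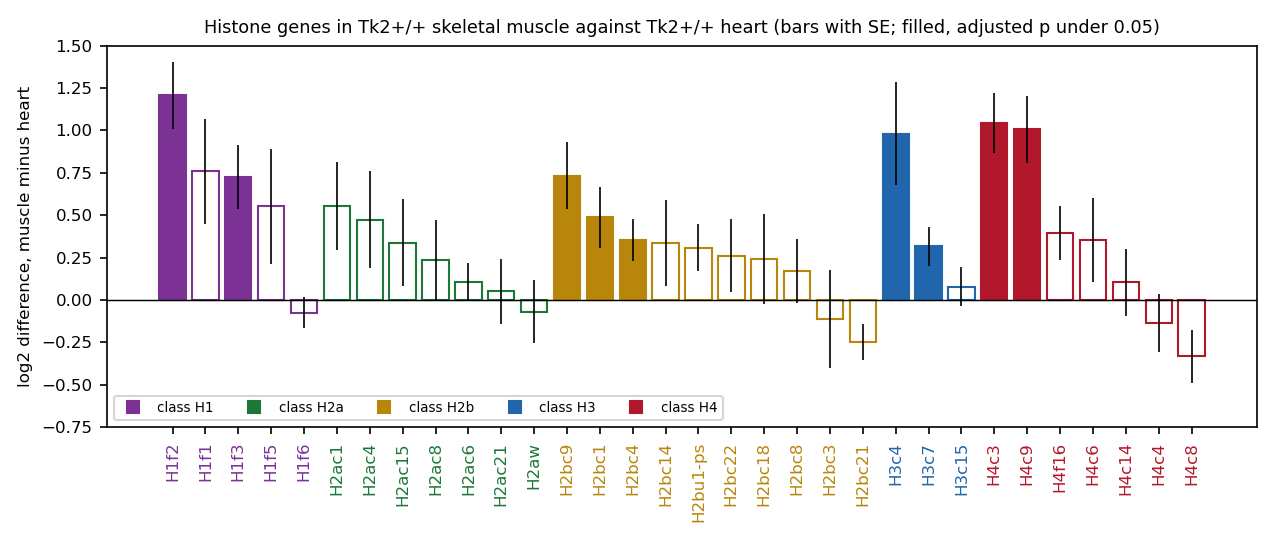
Log2 difference in signal + 16 between Tk2+/+ skeletal muscle and Tk2+/+ heart for the 32 members, with SE, by class, filled where the adjusted p was under 0.05. H1f2 (1.21), H4c3 (1.04) and H4c9 (1.01) stand highest, and no filled bar lies below 0.

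Genes of S phase were counted beside the histones. Of 40 such genes, 13 were lower and 2 (Pole and Gins1) higher in muscle, and 35 were lower in heart as deposited and 28 after quantile normalization. Of all genes, for this and the lists that follow, 10.9% were lower and 11.6% higher in muscle, 49% were lower and 1.99% higher in heart as deposited, and 17.8% were lower and 13.8% higher in heart after quantile normalization. Ccna2, the S phase cyclin, gave 312, 224 and 159 in Tk2+/+ muscle and 10.6, 49.1 and 18.7 in Tk2-/- muscle (log2 fold change -2.61, adjusted p = 3.41e-05). Mki67, a marker of cycling cells, had log2 fold changes of -2.21 in muscle and -3.03 in heart (adjusted p = 0.000642 and 1.20e-05), and of -2.70 in heart after quantile normalization (adjusted p = 0.000347). Top2a, Cdk1 and Mcm5 were lower in muscle, at -2.27, -1.87 and -1.31. Rrm2, a subunit of ribonucleotide reductase, had a log2 fold change of -1.79 in heart (-1.35 after quantile normalization, adjusted p = 0.00322) and of 0.48 (adjusted p = 0.314) in muscle. Pcna, the sliding clamp of the replication fork, gave 0.11 (adjusted p = 0.675) in muscle and -1.04 in heart (-0.36 after quantile normalization, adjusted p = 0.0306).

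Genes for histone supply were counted by role. Of 21 genes for histone transcription and 3′ end processing, 2 (Ncbp2 and Cstf2) were lower and 1 (Sympk) higher in muscle, and 19 were lower in heart, where 49% of all genes were (11 lower and 2 higher after quantile normalization). Slbp gave 141, 121 and 85.7 in Tk2+/+ muscle and 112, 88.8 and 82.3 in Tk2-/- muscle, with overlap, and its change of -0.24 on the log2 scale missed the threshold (adjusted p = 0.432). In heart Slbp was at -1.41 as deposited (adjusted p = 1.53e-05) and at -0.93 after quantile normalization (adjusted p = 0.000911). Ncbp2, a cap-binding subunit, had log2 fold changes of -0.75 in muscle and -1.65 in heart (-1.04 after quantile normalization), and Sympk, a scaffold of the cleavage complex, was at 0.63 in muscle (adjusted p = 0.000447). Of 23 histone chaperone and deposition genes, 3 (Daxx, Npm1 and Supt6) were higher and 2 (Chaf1b and Tonsl) lower in muscle, and 19 were lower in heart (5 lower and 2 higher after quantile normalization, where 17.8% and 13.8% of all genes were). Daxx, a chaperone of H3.3, gave 0.89 in muscle (adjusted p = 1.24e-05), and Asf1b, an H3-H4 chaperone, was at -2.11 in heart (-1.68 after quantile normalization). Tonsl (adjusted p = 0.0497) and Supt6 (adjusted p = 0.0438) lay close to the threshold in muscle, and leaving out single arrays changed the small counts of both lists.

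Histone genes listed here as replication-independent were counted as a comparison for the members. Whether each of them is expressed apart from S phase was not tested. Of 12, 3 (Cenpa, Macroh2a2 and H2az1) were lower and 1 (H3f3b) was higher in muscle, with a median of -0.22, where 10.9% of all genes were lower and 11.6% higher. Cenpa, the H3 variant of the centromere, gave 128, 106 and 83.6 in Tk2+/+ muscle and 36.7, 41.9 and 26.6 in Tk2-/- muscle, a log2 fold change of -1.25 (adjusted p = 6.63e-05). H3f3b, which encodes H3.3, gave 0.50 (adjusted p = 0.0212). The 3 lower genes in muscle became 1 without Tk2+/+ muscle replicate 1 or 2, Tk2-/- muscle replicate 2 or 3, or Tk2-/- heart replicate 1. The 1 higher gene became 0 without Tk2+/+ muscle replicate 3 or Tk2-/- muscle replicate 1 or 2. In heart 8 were lower as deposited, H2az1 (-1.24) and H2ax (-1.17) among them, where 49% of all genes were. After quantile normalization 3 were lower and 1 was higher, where 17.8% and 13.8% of all genes were, with H2az1 at -0.56 and H2ax at -0.74.

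Markers of other cell types differed between the same groups. Of 12 fibroblast markers 9 were lower in Tk2-/- muscle and 1 (Pdgfra) was higher, with a summed signal of 16829 to 19380.0 in Tk2+/+ and 8862 to 11338 in Tk2-/- muscle. Of 10 satellite cell and myoblast markers 5 were lower there, summing to 1373 to 1984 against 1055 to 1358. Of 16 leucocyte markers 4 (Cd68, Lyz2, S100a8 and S100a9) were higher in Tk2-/- muscle, 2 of them after quantile normalization, and their sums overlapped, at 1738 to 2827 in Tk2+/+ and 2023 to 2762 in Tk2-/- muscle. Of 17 cardiomyocyte markers, some of which developing muscle also expresses, 2 (Myl3 and Pln) were higher and 2 (Actc1 and Tnnt2) lower there, with sums of 9116 to 10904 against 4654 to 5577. Among all genes 10.9% were lower and 11.6% higher in muscle. In heart all 12 fibroblast, 11 of 12 endothelial and 11 of 16 leucocyte markers were lower as deposited, and 9, 5 and 10 after quantile normalization, with 1 fibroblast and 2 endothelial markers higher, where 49% of all genes were lower as deposited and 17.8% after quantile normalization. Leucocyte markers summed to 2689 to 3410.1 in Tk2+/+ heart and 1061 to 1262 in Tk2-/- heart. None of these markers was listed at 0 on any array, and their part in the histone results was not tested.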

How the data were processed

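RNA of 12 tissue samples had been hybridised to Affymetrix mouse gene arrays, after RNeasy isolation and amplification with an Ambion kit. The authors deposited 1 linear intensity per probe set and array. Per the submitters' processing notes, Expression Console and PLIER made these values, and neither their versions nor the normalization procedure are stated. Of 35556 probe sets, 21218 carried 1 gene symbol, and the brightest was kept for each of 18820 genes. Signals were analysed as log2(signal + 16), which understates changes of dim genes.

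A model of the 4 group means was fitted with limma (version 3.58.1, R 4.3.3), leaving 8 residual degrees of freedom. P-values were 2-sided, adjusted by Benjamini-Hochberg across the 18820 genes and called under 0.05. The fit was tested on simulated data. Quantile normalization used all probe sets of a tissue. Members were matched through former names in RefSeq, and members and lists were chosen with earlier results of these data known. Genes named were the 2 brightest of each class, every member called in muscle or for the difference between tissues, the 10 largest changes in heart, members higher in heart after quantile normalization, the 5 largest differences between Tk2+/+ tissues, the member with 2 probe sets, up to 5 genes of each S phase and histone supply list per tissue, and Slbp, Pcna and Mki67. Others were named after their values were seen.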

Additional observations from a re-analysis of the deposited data

Results flagged for a closer look

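The genotype effect differed between the tissues for 6 histone genes as deposited, by the interaction term of the limma fit, and in each the log2 fold change in muscle lay above that in heart. The differences (muscle effect minus heart effect) were 1.10 for H2ac21, 0.97 for H2bc22, 0.83 for H2bc4, 0.68 for H4c8, 0.53 for H2bc21 and 0.35 for H1f6, whose signal was 12.6 to 24.9 in all groups. Of all genes, 41.3% differed in the same direction, on heart arrays whose overall signal was lower in Tk2-/- mice. After quantile normalization within each tissue none of the 6 passed the test. The groups hold 3 arrays each, so single arrays were not tested for standing apart.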

How the results depend on the processing

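In skeletal muscle H1f2 stayed higher under every scaling, offset, filter and fit tried with limma, and 1 member was higher and 12 to 19 were lower under them, whereas the methods' t-test gave 0 higher and 0 lower after Benjamini-Hochberg (H1f2 at an adjusted p of 0.0576) and 0 higher and 6 lower at a fold of 2 with an unadjusted p. Shares of all genes are given only as deposited and after quantile normalization within each tissue, both by limma with all 12 arrays. Counts under every other setting therefore have no background beside them. This includes the other scalings, the methods' t-test, the replicate block and the fits without 1 array. Leaving out 1 array gave 1 higher and 9 to 20 lower members in muscle (median -0.72 to -0.43). In heart it gave 1 higher and 23 to 26 lower (median -1.10 to -0.86). The difference between tissues then gave 3 to 9 higher and 0 to 1 lower, and the Tk2+/+ tissues 5 to 13 higher and 0 to 1 lower. After quantile normalization within each tissue and leaving out 1 array, muscle gave 1 higher and 11 to 18 lower and heart 2 to 4 higher and 11 to 16 lower.

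Heart depended on the scaling. Members higher there numbered 5 after median centring, 4 after quantile normalization within each tissue or over the 12 arrays, and 4 after upper-quartile scaling, and members lower numbered 15, 15 and 12 under the last 3 and 13 by the methods' t-test at a fold of 2. The 5 included H3c7 and H2ac6 (adjusted p = 0.00668 and 0.0371, limma). These lay at 1.60 to 6.13 and 7.36 to 16.4 over the heart arrays, near or below the offset of 16. For the difference between tissues the counts higher were 2 after median centring and 0 under the other 3, and the counts lower were 4, 3, 3 and 4, and 1 with array weights. Between Tk2+/+ tissues 21 were higher after quantile normalization within each tissue, a scale not suited to comparing tissues. The counts higher were 2 by the methods' t-test after Benjamini-Hochberg and 3 at a fold of 2. The counts lower were 2 after median centring or quantile normalization over the 12 arrays and 1 with Xist as a covariate.

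Log2 fold changes in heart turned positive after median centring for H3c7 (0.44), H2ac6 (0.31), H1f6 (0.11) and H3c15 (0.067), all of them dim. After upper-quartile scaling they turned positive for H1f6 (0.055) and H4c4 (0.13). H4c4 gave 0.00197 after quantile normalization over the 12 arrays. H4c14 gave 0.14, 0.14 and 0.20 and H4f16 0.51, 0.52 and 0.55 after quantile normalization within each tissue, over the 12 arrays and upper-quartile scaling. The difference for H4c8 was -0.048, -0.043 and -0.057 under these 3, for H1f6 -0.00429 after median centring and -0.056 after upper-quartile scaling, and for H2bc21 -0.058 after upper-quartile scaling. The cause was not tested.

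Whether replicate numbers pair the samples was not settled. Same-number correlations between genotypes were -0.03, 0.12 and 0.13 in muscle and -0.19, -0.17 and -0.05 in heart. Different-number correlations ran from -0.16 to 0.06 in muscle and from -0.15 to 0.24 in heart. They were taken on deviations from the means of 3 arrays and cannot exclude pairing. The replicate block gave 16 lower and 1 higher in muscle, with 1 member gained (H2aw) and 1 lost (H2bc18), and gave 1 lower for the difference. With quantile normalization, an alternative chosen after seeing the data, the block gave 3 higher and 15 lower in heart, 0 higher and 2 lower for the difference, 0.14 for H4c14 and 0.51 for H4f16 in heart, and -0.048 for H4c8.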
